A study of Caenorhabditis elegans with 12 samples.

Results

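The 35 genes described here encode proteins that pair, synapse and recombine chromosomes in meiosis of *Caenorhabditis elegans*. They were taken as a list of symbols and matched to the gene identifiers of the deposited tables, each of which holds 46925 genes, and all 35 were found and tested. RNA was sequenced from whole animals grown on HT115 bacteria, in 12 libraries. Adults of D1 and of D7 were taken from wild type and from animals labelled *sams-1*, which gives 4 groups with replicates 1, 3 and 5 in each. The labels give a wild-type genotype to every library and separate the groups by treatment, Control or RNAi, whereas the study's text writes *sams-1(lof)* for the second kind of animal. SAMS-1 makes S-adenosylmethionine, the methyl donor of the cell. The study describes the replicates as biologically independent, and the labels do not say how they were raised.

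In the early meiotic germ line, chromosomes build an axis of cohesin and HORMA-domain proteins, and zinc finger proteins tether one end of each chromosome, its pairing centre, so that homologues find each other. The synaptonemal complex then zips homologues together. SPO-11 cuts the DNA, and repair of these breaks by strand exchange with the homologue gives the crossovers that hold homologues together until they separate. In a hermaphrodite these genes act mainly in germ cells, and many of their mRNAs are also carried into oocytes. In RNA from whole animals, fewer germ cells and less RNA per germ cell cannot be told apart.

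With TMM scaling the mRNA of *sams-1* was not lower under the *sams-1* label, and at D7 it was higher. It stood at 164, 109 and 201 CPM (read counts brought to a common library size, with TMM factors taken within each age) in wild-type replicates 1, 3 and 5 at D1, and at 216, 211 and 227 CPM in *sams-1*-labelled libraries, a difference that did not pass (log2 fold change 0.46, SE 0.26, adjusted p = 0.146 in edgeR). At D7 it was 13.0, 19.8 and 17.3 CPM in wild type, as against 37.4, 75.4 and 53.0 CPM under the other label (log2 fold change 1.72, SE 0.27, adjusted p = 0.000318 in edgeR). This direction depended on the scaling. With muscle genes it turned to -1.03 at D1 (adjusted p = 0.0892), and the value at D7 was 0.60 (adjusted p = 0.154). With intestinal genes it turned to -2.27 at D1 (adjusted p = 0.00131) and to -0.83 at D7 (adjusted p = 0.0112, all from edgeR). Groups are therefore named by their labels throughout.

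Depth was 3939023 to 7568388 counts per library. The spread between replicates, as edgeR's biological coefficient of variation, was 0.432 for D1 and 0.186 for D7. Under TMM scaling the median gene had a log2 fold change of 0.58 at D1 and of 0.13 at D7. Directions below are relative to that scaling. Replicate 1 labelled *sams-1* at D1 stood apart. All 35 meiotic genes were highest there among the 3 libraries of its group, at a median of 2.05 times (range 1.15 to 4.74 times) the mean of replicates 3 and 5. Its summed TPM (an abundance corrected for transcript length, on one total for all libraries) of 25 oocyte genes was 5402, against 975 and 649 in the other libraries of that group. In wild type at D1, the summed TPM of 24 sperm genes ran from 150 in replicate 1 to 3321 in replicate 5.

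Together the 35 genes made up 2140 to 2616 TPM in wild type at D1 and 2593 to 2647 TPM at D7. In *sams-1*-labelled libraries their sum was 427 to 1068 TPM at D1 and 992 to 1380 TPM at D7, so that the groups did not overlap at either age. A list of 41 other germ line genes, such as P granule and translational control genes, fell in the same libraries. Its summed TPM was 8008 to 10357 in wild type and 1237 to 3038 in *sams-1*-labelled libraries at D1, and 10294 to 10470 and 3057 to 3878 at D7. None of the 41 was at 0 in any library. Of these 41 genes, 32 were lower at D1 and 41 at D7. Of 25 oocyte genes, 12 and 23 were lower. Of the 24 sperm genes, 1 of 22 tested was higher at D1, and 12 of 14 tested were higher at D7 with 1 lower. In wild type at D7, 7 to 13 of the 24 were at 0 TPM in each library. The filter on low counts left 14, which can have passed it through the *sams-1*-labelled libraries alone. The count of 12 is therefore not a measure of the list. The summed TPM of the sperm genes at D7 was 15.4 to 36.1 in wild type and 149 to 337 in *sams-1*-labelled libraries. Most somatic genes went the other way. Of 25 muscle genes, 10 were higher at D1, and 21 were higher and 1 lower at D7. Of 17 intestinal genes 16 and 14 were higher. Of 18 embryo genes, 1 of 5 tested was lower at D1, and 3 of 6 tested were lower and 1 higher at D7. Over all genes tested, 16.8% were called lower and 17.4% higher at D1, and 29.4% and 35.6% at D7. The part of these shifts in the results below was not tested, apart from the comparison relative to germ line genes.

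**Figure D1:**
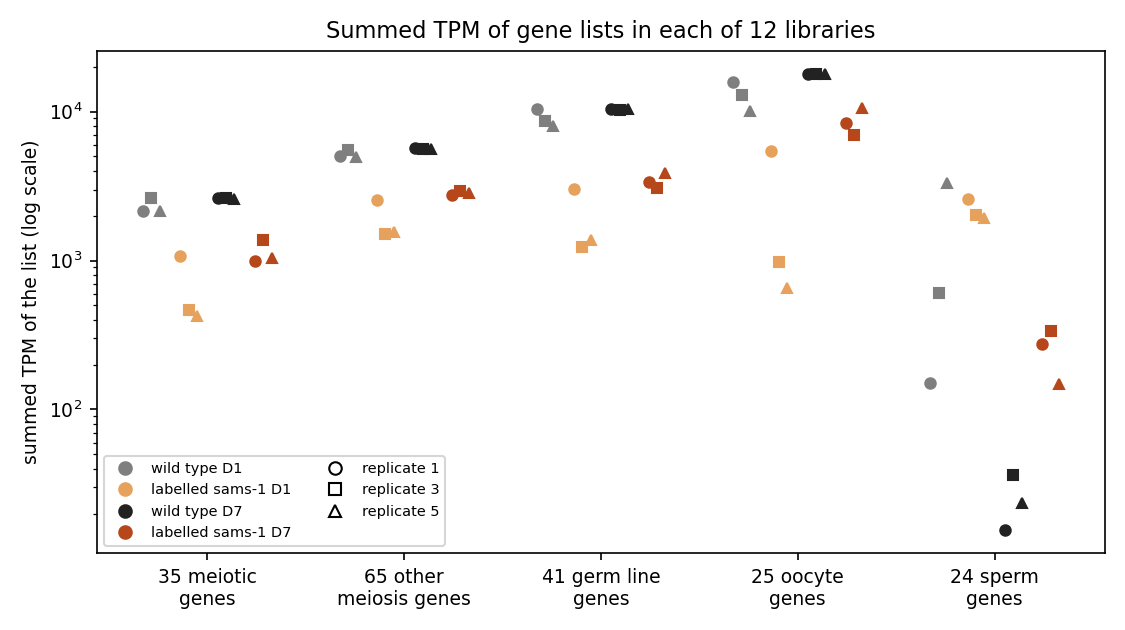
Summed TPM (log axis) of the 35 meiotic genes and of 4 other gene lists in each of the 12 libraries; color gives the group and the marker shape the replicate number. The meiotic, other meiosis, germ line and oocyte lists sat lower in *sams-1*-labelled libraries at both ages, with replicate 1 above replicates 3 and 5 at D1, whereas the sperm list at D7 sat higher.

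All 35 genes had lower estimates in *sams-1*-labelled libraries at both ages. At D1, 21 of 35 fell (60%) at an adjusted p under 0.01, where 16.8% of the 12956 genes tested were called lower. At D7, 29 of 35 fell (82.9%), where 29.4% of 12242 genes tested were called lower, and 24 of these changed at least 2-fold. The median log2 fold change over the 35 was -1.88 at D1 (range -2.84 to -1.04) and -1.15 at D7 (range -1.81 to -0.31). None was called higher at either age by edgeR, DESeq2 or limma, and 0 at an unadjusted p under 0.05 by edgeR, against 17.4% of all genes called higher at D1 and 35.6% at D7. The 21 genes called at D1 were all called at D7 (100% of the D1 calls and 72.4% of the D7 calls). The count at D1 changed with the libraries used, more than the size of the decrease did. It was 0 without wild-type replicate 1 or 3 or without replicate 3 or 5 labelled *sams-1*. With these 5-library sets at most 2 of all genes tested were called lower and 12 higher, so that a count of 0 says nothing about the decrease. The median log2 fold change of the 35 was then -1.92, -1.83, -1.68 and -1.67, all 35 estimates stayed below 0, and 28 to 32 of them had an unadjusted p under 0.05. The count was 13 without wild-type replicate 5 (median -1.98), where 7.86% of all genes were called lower, and 34 without replicate 1 labelled *sams-1* (median -2.37), where 26.9% were. At D7 the count stayed between 27 and 35 when single libraries were left out, where 23.8% to 34.2% of all genes were called lower.

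**Figure D2:**
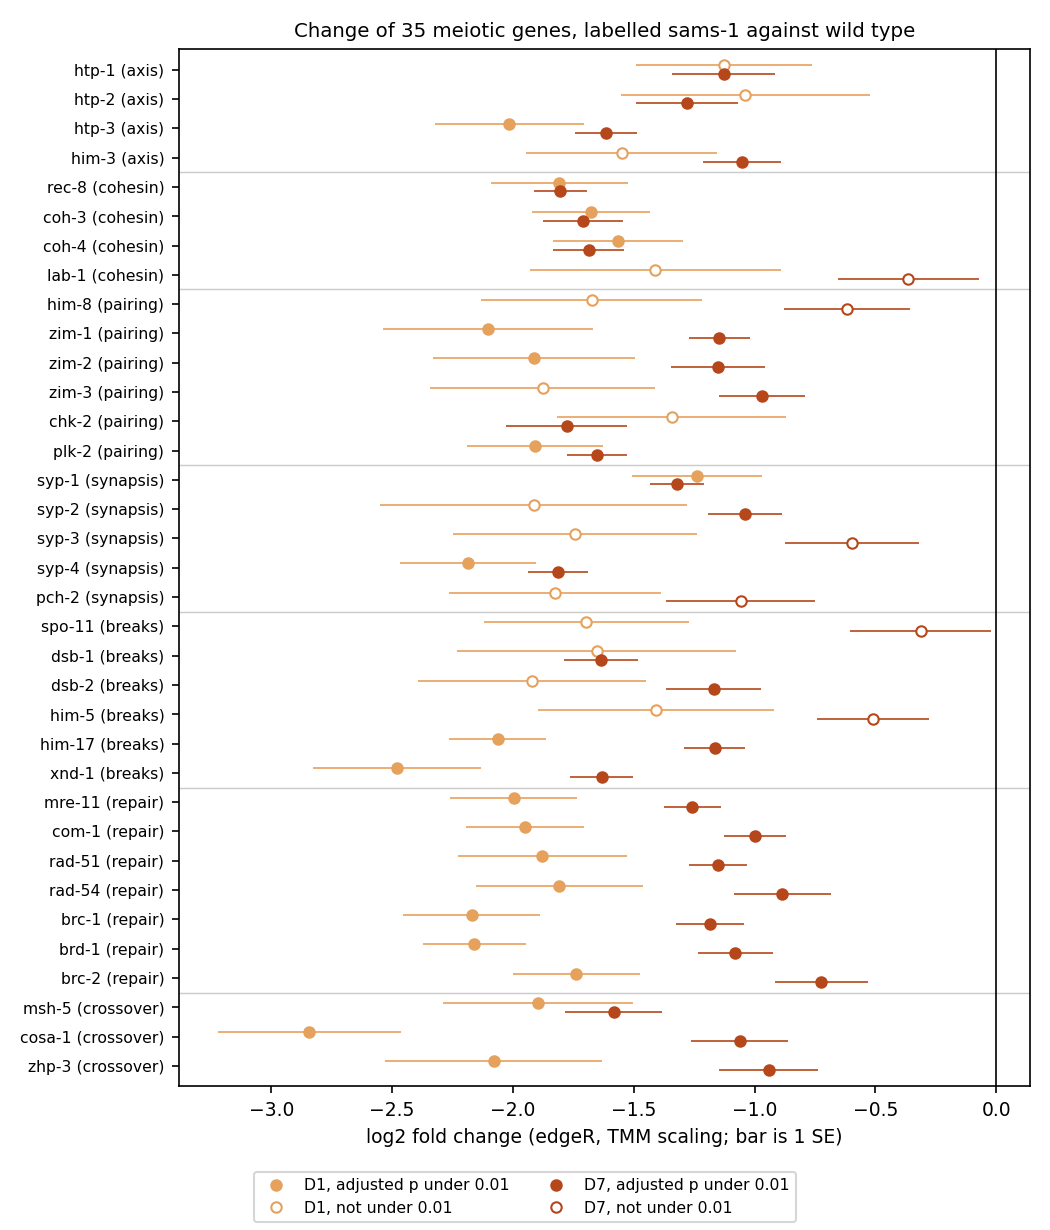
Log2 fold change of each of the 35 genes in *sams-1*-labelled libraries against wild type (TMM scaling, bars are 1 SE), with D1 in light and D7 in dark color, ordered by role. Filled points passed an adjusted p under 0.01. All points lie below 0, and the bars are longer at D1.

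The chromosome axis is built on 4 HORMA-domain proteins. *htp-3*, which recruits the others, fell at both ages (log2 fold change -2.01 at D1 and -1.62 at D7). *him-3*, the axis protein needed for homologue alignment, was at -1.55 at D1 (adjusted p = 0.0130, edgeR) and fell at D7 (-1.05). *htp-1* and *htp-2* are close paralogues that help release cohesion stepwise. At D7 *htp-1* had 151, 146 and 157 CPM in wild type against 51.5, 97.6 and 59.0 CPM in *sams-1*-labelled libraries. *htp-2* had 88.2, 84.4 and 80.8 CPM in wild type against 30.4, 47.9 and 26.5 CPM in *sams-1*-labelled libraries. For both genes replicate 3 labelled *sams-1* was the highest of its group, and the groups did not overlap. Both fell, with log2 fold changes of -1.13 (SE 0.21) for *htp-1* and -1.28 (SE 0.21) for *htp-2*. At D1 neither passed, at -1.13 (adjusted p = 0.0295) and -1.04 (adjusted p = 0.109), and the groups of *htp-2* overlapped there, with 67.6, 68.5 and 57.9 CPM in wild type against 60.2, 16.9 and 17.2 CPM in *sams-1*-labelled libraries. Per length, *htp-1* had 1.71 to 3.19 times the TPM of *htp-2* across the 12 libraries. Expected counts of both genes were whole numbers in every library, so that the counts show no reads divided between them. How reads that match both genes were placed was not tested.

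Meiotic cohesin holds sister chromatids with a kleisin subunit, REC-8, COH-3 or COH-4. At D7 *rec-8* had 210, 198 and 220 CPM in wild type against 59.0, 58.7 and 62.0 CPM in *sams-1*-labelled libraries, with no overlap. Its log2 fold change was -1.80 (SE 0.11, adjusted p = 4.92e-06, edgeR), and -1.81 at D1 (SE 0.28, adjusted p = 0.00347). *coh-3* had 101, 100 and 114 CPM in wild type at D7 against 30.6, 26.5 and 38.8 CPM. *coh-4*, its close paralogue, had 67.8, 73.2 and 79.0 CPM against 21.7, 22.05 and 24.4 CPM. All 3 kleisin genes had tight groups that did not overlap. How often groups lie apart over all genes was not counted, so that this and like remarks on other genes describe the values only. *coh-3* fell at D7 (-1.71) and D1 (-1.68), as did *coh-4* (-1.69 and -1.57). The counts of *coh-4* were fractional in all 12 libraries and its exons overlap *Y45G5AM.7* on the same strand, so that its share of reads is uncertain. *lab-1*, which protects cohesion on the long arms of the bivalent, did not pass, with estimates of -1.41 at D1 (adjusted p = 0.0453) and -0.36 at D7 (adjusted p = 0.273).

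Pairing centres are bound by 4 zinc finger proteins whose genes lie side by side on the plus strand of chromosome IV (WBcel235). *zim-1* spans 10547086 to 10555513, *zim-2* 10555247 to 10558225, *zim-3* 10558715 to 10561429 and *him-8* 10561905 to 10563974. *zim-1* and *zim-2* overlap by 267 bases and the other gaps are 489 and 475 bases, so that reads between neighbours can be shared, and expected counts were fractional in 11 libraries for *zim-2* and for *zim-3* and in 1 for *zim-1*. HIM-8 binds the X chromosome, and the ZIM proteins bind autosomes.

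At D7 *zim-1* had 118, 121 and 113 CPM in wild type against 53.1, 58.5 and 47.5 CPM in *sams-1*-labelled libraries. *zim-2* had 72.5, 72.5 and 71.1 against 25.2, 42.7 and 29.7 CPM, and *zim-3* 69.3, 73.7 and 72.1 against 30.4, 46.6 and 33.1 CPM. None of the ZIM genes overlapped between groups, a remark on the values only, since how often this happens over all genes was not counted. The log2 fold changes were -1.15, -1.15 and -0.97. *him-8* had 52.9, 52.2 and 50.2 CPM in wild type against 25.8, 50.8 and 25.1 CPM in *sams-1*-labelled libraries. Its replicate 3 lay within the wild-type range, and the others averaged 49.2% of the wild-type mean. *him-8* did not pass (-0.62, SE 0.26, adjusted p = 0.0517, edgeR).

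At D1 *zim-1* had 130, 143 and 107 CPM in wild type against 50.05, 22.5 and 15.8 CPM in *sams-1*-labelled libraries, and fell (-2.10). *zim-2* had 65.1, 66.3 and 64.1 against 29.1, 11.5 and 11.2 CPM, and fell (-1.91). *zim-3* had 75.7, 123 and 106 against 47.9, 20.1 and 14.8 CPM (-1.88, adjusted p = 0.0117). *him-8* had 64.2, 74.1 and 50.1 against 34.2, 13.0 and 11.7 CPM (-1.67, adjusted p = 0.0165). None of the 4 overlapped between groups at D1, again a remark on the values only. *zim-1* and *zim-2* passed, and *zim-3* and *him-8* did not.

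CHK-2 is the kinase that switches on pairing and break formation, and PLK-2 is the polo-like kinase that it brings to pairing centres. *chk-2* had the lowest TPM of the 35 genes in all 4 groups (mean 7.60 TPM in wild type at D7). It had 18.4, 18.7 and 22.1 CPM in wild type at D7 and 7.35, 5.17 and 4.73 CPM in *sams-1*-labelled libraries, with no overlap, and fell (-1.78, SE 0.25, adjusted p = 0.000155, edgeR). Its smallest count was 23 reads. At D1 it was at -1.34 (adjusted p = 0.0394). *plk-2* had 234, 200 and 221 CPM in wild type at D7 and 73.1, 62.1 and 72.7 CPM in *sams-1*-labelled libraries. It fell at D7 (-1.65) and at D1 (-1.91), without overlap at D7.

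Of the central region genes of the synaptonemal complex, *syp-4* was the most abundant of the 35 genes per length in wild type, with means of 160 TPM at D1 and 201 TPM at D7. At D7 it had 403, 406 and 430 CPM in wild type against 109, 109 and 134 CPM in *sams-1*-labelled libraries. At D1 it had 312, 388 and 341 CPM against 105, 59.9 and 63.9 CPM. The groups stood far apart at both ages. *syp-4* fell at D7 (-1.81, SE 0.12, adjusted p = 6.1e-06), the largest change of the 35 at that age, and at D1 (-2.19, SE 0.28, adjusted p = 0.00267, edgeR).

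*syp-1*, which encodes another central region protein, had log2 fold changes of -1.32 at D7 and -1.24 at D1, both called. The TPM of *syp-4* over that of *syp-1* was 4.48 to 4.62 in wild type at D1 and 3.52 to 3.72 at D7. In *sams-1*-labelled libraries it was 2.19 to 2.49 at D1 and 2.23 to 3.03 at D7, so that the ratio did not overlap between the groups at either age. The smallest p that an exact permutation test can reach with 3 against 3 libraries is 0.10, and no test of this ratio was made. Of the other pairs looked at, *him-8* over *zim-2* also lay apart at D7 but not at D1. The ratios *htp-1* over *htp-2*, *coh-3* over *coh-4*, *brc-1* over *brd-1* and *dsb-1* over *dsb-2* overlapped at both ages. How often a pair lies apart over all genes was not counted. Counts of *syp-1* were fractional in all 12 libraries, and its exons overlap *F13A7.14* on the same strand. *syp-2* fell at D7 (-1.04) and was at -1.91 at D1 (adjusted p = 0.0322). *syp-3* did not pass, at -1.74 at D1 (adjusted p = 0.0201) and -0.60 at D7 (adjusted p = 0.0741). *pch-2*, which encodes an ATPase that remodels HORMA proteins and checks synapsis, lay just outside the threshold at both ages, at -1.82 (adjusted p = 0.0106) and -1.06 (adjusted p = 0.0105).

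Of the 6 genes for break formation, 4 fell at D7 and 2 at D1. *xnd-1*, which encodes a chromatin protein that promotes breaks on the X chromosome, was the second most abundant of the 35 genes per length in wild type at D7. It had 439, 466 and 459 CPM in wild type at D7 against 123, 160 and 157 CPM in *sams-1*-labelled libraries, and 340, 409 and 281 against 92.1, 45.1 and 47.2 CPM at D1. It fell at D7 (-1.63, SE 0.13) and at D1 (-2.48, SE 0.35, adjusted p = 0.00289, edgeR), without overlap.

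*dsb-1*, required for breaks on all chromosomes, had 121, 141 and 106 CPM in wild type at D7 and 34.98, 44.5 and 39.0 CPM in *sams-1*-labelled libraries, without overlap. It fell at D7 (-1.64) and was at -1.65 at D1 (adjusted p = 0.0380). Its paralogue *dsb-2* fell at D7 (-1.17) and was at -1.92 at D1 (adjusted p = 0.0114). *him-17*, which encodes a chromatin protein that promotes breaks, fell at D1 (-2.06) and at D7 (-1.17). *spo-11*, the gene of the enzyme that makes the cuts, was at -1.70 at D1 (adjusted p = 0.0120) and -0.31 at D7 (adjusted p = 0.345), and *him-5*, needed for breaks on the X chromosome, was at -1.41 (adjusted p = 0.0377) and -0.51 (adjusted p = 0.0678). Neither passed at either age.

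All 7 repair genes fell at both ages. *mre-11* and *com-1*, whose products trim the broken ends, had log2 fold changes of -1.997 and -1.95 at D1 and of -1.26 and -0.998 at D7. *rad-51*, the strand exchange recombinase gene, was at -1.88 and -1.15. *rad-54*, whose product works with RAD-51, was at -1.81 and -0.88. *brc-1* and *brd-1* are the worm counterparts of human BRCA1 and BARD1. At D1 *brc-1* had 125, 124 and 84.3 CPM in wild type against 30.7, 23.6 and 19.5 CPM in *sams-1*-labelled libraries, without overlap. Its log2 fold change was -2.17 at D1 (SE 0.28, adjusted p = 0.00267, edgeR) and -1.18 at D7, and that of *brd-1* was -2.16 and -1.08. *brc-2*, which loads RAD-51, had the smallest change of the 7, -1.74 at D1 and -0.72 at D7. Within this group the estimates at D1 spanned only -2.17 to -1.74.

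The crossover genes *msh-5*, *cosa-1* and *zhp-3* encode proteins that mark the breaks to become crossovers, and all 3 fell at both ages. *cosa-1* had 40.1, 44.3 and 43.5 CPM in wild type at D1 and 8.54, 3.71 and 5.47 CPM in *sams-1*-labelled libraries, where its counts were 64, 22 and 35 reads. The groups stood far apart. The log2 fold change of *cosa-1*, -2.84 (SE 0.38, adjusted p = 0.00274, edgeR), was the largest of the 35 at D1. At D7 it was at -1.06. *msh-5* was at -1.90 at D1 and -1.58 at D7, and *zhp-3* at -2.08 and -0.94.

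**Figure D3:**
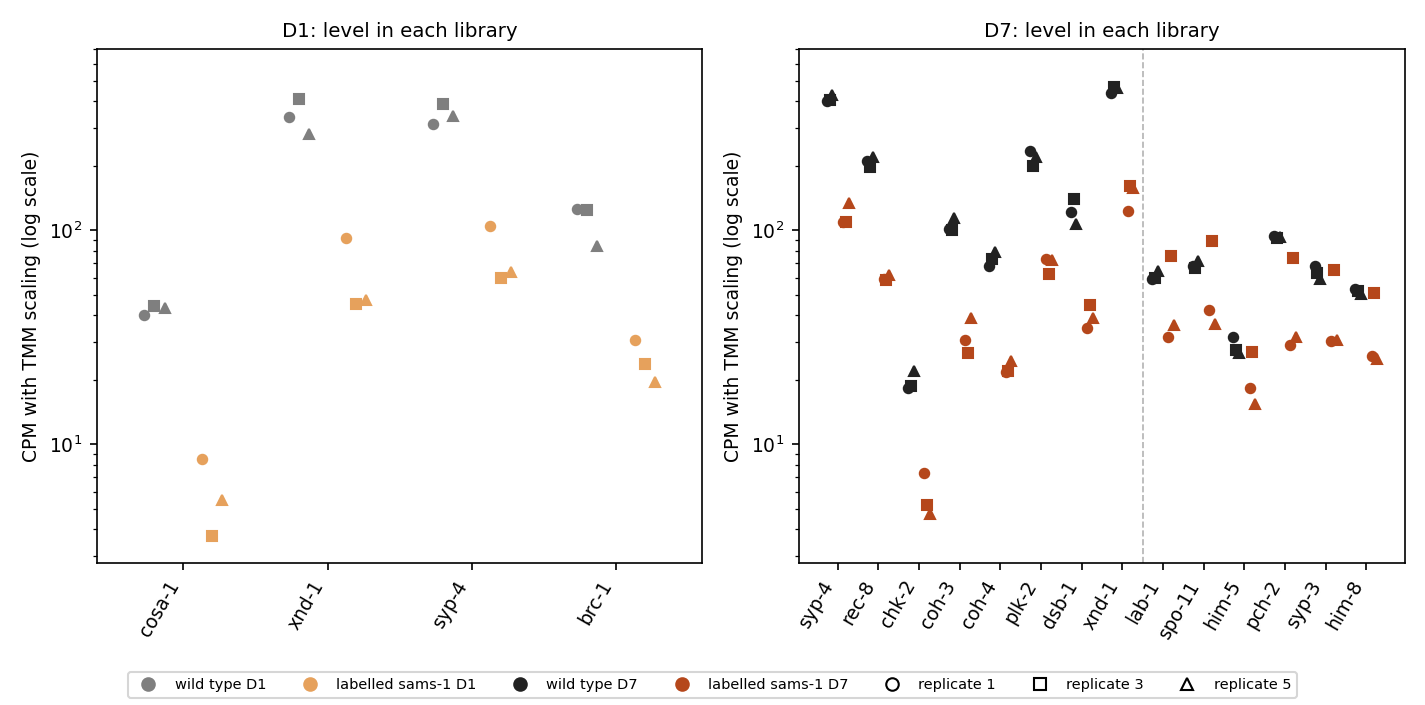
CPM (log axis, TMM scaling done separately at each age) in each library for the 4 genes with the largest decrease at D1, left, and for the 8 with the largest decrease at D7, right of which, after the dashed line, stand the 6 genes that did not pass at D7. In 5 of those 6, replicate 3 labelled *sams-1* (square) lies among or above the wild-type libraries, and in *pch-2* it lies below them.

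The 6 genes that did not pass at D7 have 1 library in common. In replicate 3 labelled *sams-1*, *spo-11* stood at 129%, *lab-1* at 124%, *syp-3* at 103%, *him-8* at 98.3%, *him-5* at 94.1% and *pch-2* at 79.7% of the wild-type mean. In replicates 1 and 5 the same genes averaged 57.0%, 55.2%, 48.2%, 49.2%, 58.8% and 32.7%. Over all 35 genes the CPM in replicate 3 was a median of 1.31 times the mean of replicates 1 and 5, with a range of 0.77 for *coh-3* to 2.44 for *pch-2*. Among the 6 genes it was 1.60 to 2.44 times. Without this library all 35 genes fell at D7, where 34.2% of the 12720 genes tested were called lower. *pch-2* then changed by -1.61, *syp-3* by -1.05, *him-8* by -1.02, *lab-1* by -0.85, *spo-11* by -0.81 and *him-5* by -0.77 (adjusted p at most 0.00207, edgeR). The library was singled out after the values of these 6 genes were seen, so that their calls without it are a description and no test of a decrease.

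Transcript length moved with that library's pattern. The 6 genes have lengths of 869 to 1377 bases in the files, in a range of 869 to 3681 bases over the 35. Across the 35 genes, Spearman's rho between length and the ratio of replicate 3 to replicates 1 and 5 was -0.59. Over 7200 genes with a mean of at least 100 counts it was -0.35, and over the 41 germ line genes it was 0.19. These points share the same libraries and are a description. Replicate 3 was also the shallowest of the 12 libraries (3939023 counts), and its summed TPM of germ line genes, 3057, was the lowest of its group while its sum over the 35 genes, 1380, was the highest. Other libraries gave values of this size in both directions when each was set against the others of its group. Replicate 5 labelled *sams-1* at D7 had a rho of 0.57 over the 35 genes and 0.40 over all genes of that depth. At D1, replicate 1 labelled *sams-1* had -0.67 over the 35 genes, -0.10 over all genes of that depth and -0.18 over the germ line genes, and replicate 5 had 0.60 over the 35 genes. Over the 35 genes, rho between length and the log2 fold change was -0.50 at D7 and -0.28 at D1. The part of length in these results was not tested.

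**Figure D4:**
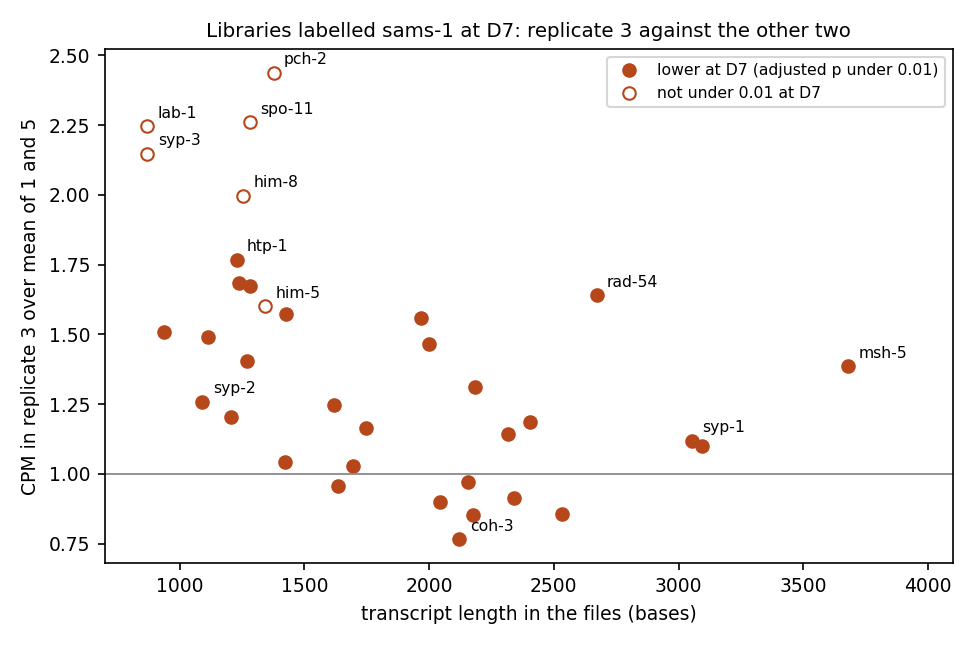
Ratio of the CPM in replicate 3 labelled *sams-1* at D7 to the mean of replicates 1 and 5, against transcript length in bases, for the 35 genes. Open points are the 6 genes not called at D7. They have ratios of 1.60 to 2.44 and lengths of 869 to 1377 bases.

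The next comparison asked whether the 35 genes moved apart from the rest of the germ line. Libraries were scaled on the geometric mean of the 41 germ line genes, none of which is among the 35. At D1 none of the 35 was called lower or higher by edgeR (0 lower and 3 higher at an unadjusted p under 0.05), where 0.0849% of all genes were called lower and 58.9% higher. The median log2 fold change was 0.23, with a range from -0.75 for *cosa-1* to 0.93 for *htp-1*. This level depends on the reference. Scaled on the oocyte genes instead, the median at D1 was 1.26, and 0 were called in either direction. At D7, 5 of 35 were called higher (14.3%) and 0 lower (1 at an unadjusted p under 0.05), where 77.7% of all genes were called higher and 0.147% lower. The median was 0.42. The 65 other meiosis genes had a median of 0.53, with 22 called higher, and the 41 germ line genes themselves had 5 higher and 2 lower. The estimates of the 35 ranged from -0.26 to 1.28.

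The 5 genes that were higher relative to germ line genes at D7 were *spo-11*, *lab-1*, *him-5*, *brc-2* and *com-1*. As a ratio to the germ line genes, *spo-11* had 0.186, 0.187 and 0.191 in wild type and 0.355, 0.759 and 0.265 in *sams-1*-labelled libraries. *lab-1* had 0.162, 0.167 and 0.172 against 0.265, 0.649 and 0.264. In both, replicate 3 stood far above the others, but replicates 1 and 5 also lay above wild type. *him-5* had 0.0868, 0.0768 and 0.0713 against 0.153, 0.231 and 0.113, and *brc-2* had 0.220, 0.244 and 0.220 against 0.385, 0.572 and 0.287. No group overlapped another in these 4 genes, a remark on the values only, where 77.7% of all genes were called higher on this scaling.

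The log2 fold changes relative to germ line genes were 1.28 for *spo-11* (SE 0.33, adjusted p = 0.00425), 1.22 for *lab-1* (SE 0.32, adjusted p = 0.00491), 1.07 for *him-5* (SE 0.27, adjusted p = 0.00388), 0.85 for *brc-2* (SE 0.23, adjusted p = 0.00570) and 0.56 for *com-1* (SE 0.14, adjusted p = 0.00309), all from edgeR. Without replicate 3 labelled *sams-1* the first 2 were 0.71 and 0.66, and 8 genes were called, the same 5 together with *him-8*, *syp-3* and *rad-51*. Over all genes 79.8% were called higher in that set. The count also moved to 14 without replicate 5 labelled *sams-1*, where 78.9% of all genes were called higher. It moved to 1 without wild-type replicate 1 (69% of all genes) and to 0 without wild-type replicate 3 or 5 (70.2% and 68.1%). The median of the 35 was 0.42, 0.44 and 0.41 in the last 3 cases, close to that with all libraries. The cohesin kleisins, *syp-4*, *chk-2*, *plk-2*, *dsb-1*, *xnd-1*, *htp-3* and *msh-5* had estimates between -0.26 and -0.03 and did not pass.

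**Figure D5:**
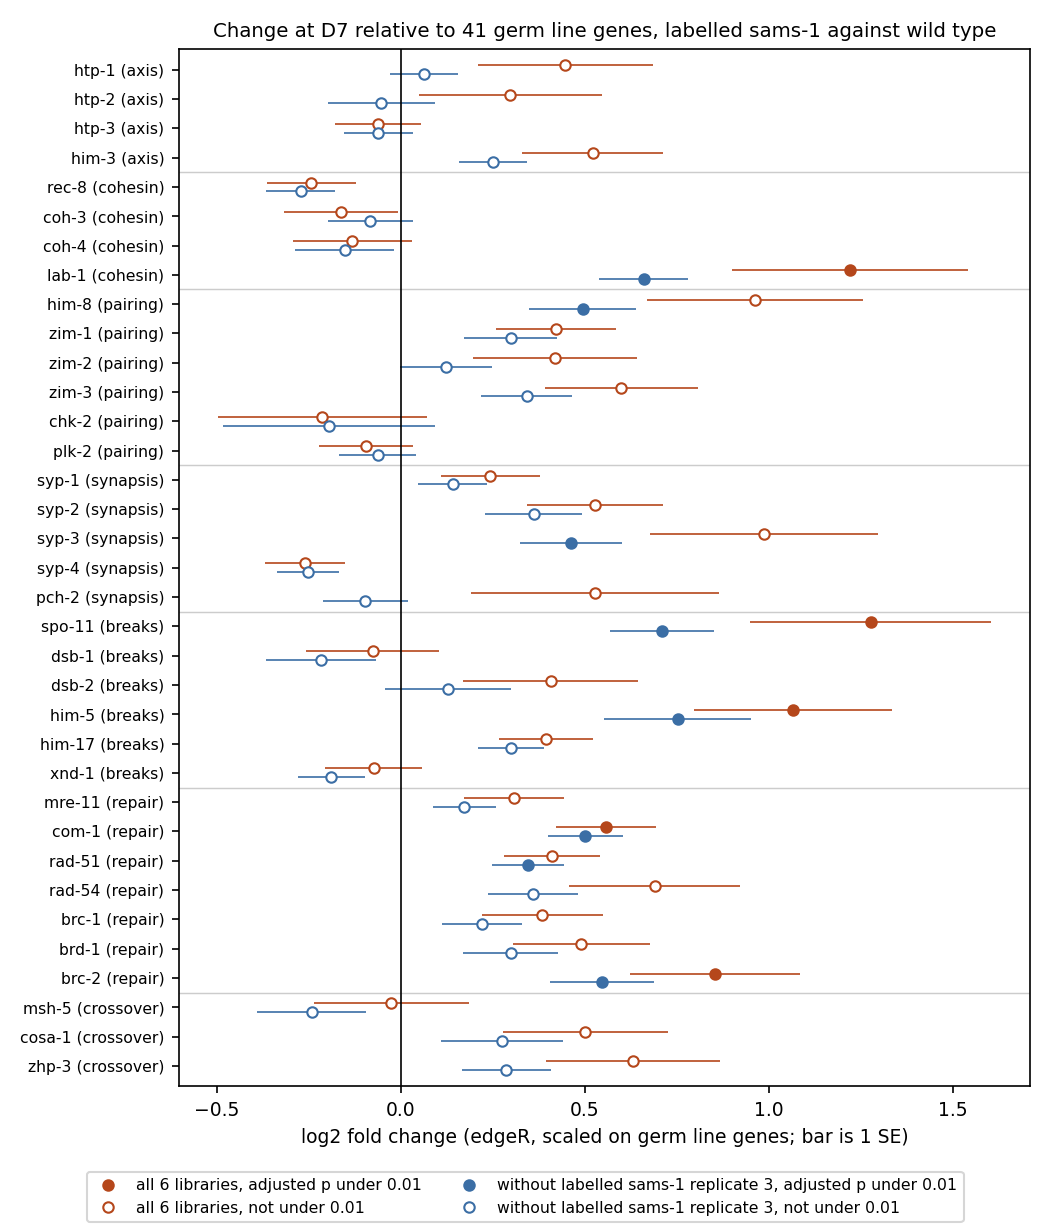
Log2 fold change at D7 relative to 41 germ line genes (bars are 1 SE), with all 6 libraries and without replicate 3 labelled *sams-1*. Filled points passed an adjusted p under 0.01. *spo-11* and *lab-1* move from 1.28 and 1.22 to 0.71 and 0.66, while the kleisin genes *rec-8*, *coh-3* and *coh-4* stay slightly below 0.

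The change from D1 to D7 was compared within each label. In wild type none of the 35 genes was called in either direction between D1 and D7 by edgeR, DESeq2 or limma (6 higher and 0 lower at an unadjusted p under 0.05, edgeR), where 2.94% of 14193 genes were called lower and 2.94% higher. The median log2 change was 0.24. The largest increases were those of *rec-8* (0.71, adjusted p = 0.0451), *coh-3* (0.71, adjusted p = 0.0250) and *syp-1* (0.69, adjusted p = 0.0313), which did not pass. In *sams-1*-labelled libraries, 1 gene was higher at D7, where 3.29% of all genes were called higher, and 0 were called lower, where 6.34% were. The median change was 0.60, and 32 of 35 estimates were above 0. When replicate 1 labelled *sams-1* at D1 was left out, the median was 1.295.

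The gene called was *cosa-1*. Its TPM in *sams-1*-labelled libraries was 7.01, 2.67 and 4.00 at D1 and 11.8, 17.6 and 14.3 at D7, against 31.5, 34.7 and 34.6 in wild type at D1 and 30.2, 31.8 and 32.6 at D7. At D7 all 3 lay above those of D1 and below wild type, whereas the wild-type libraries of both ages lay close together. It rose by 1.45 on the log2 scale with age (SE 0.29, adjusted p = 0.00556, edgeR). The call was lost with a replicate block, with scaling on intestinal genes, and without any of 6 single libraries. The estimate stayed at 1.25 to 3.24 across the alternatives, with adjusted p from 1.97e-05 to 0.0265.

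Whether the change with age differed between the *sams-1*-labelled and the wild-type libraries was tested as an interaction. None of the 35 genes was called by edgeR (0.0141% of all genes were called lower and 0.0141% higher), 6 were higher and 0 lower at an unadjusted p under 0.05, and DESeq2 called 3 higher. *cosa-1* had the largest estimate, 1.51 (SE 0.39, adjusted p = 0.0744, edgeR). With replicate 1 labelled *sams-1* at D1 left out, 21 of the 35 had a called interaction (median 1.33), where 11.4% of all genes were called higher. A called increase with age in *sams-1*-labelled libraries was then found for 31, where 21.0% of all genes were called higher. The germ line genes gave 18 and 30 of 41 and the other meiosis genes 30 and 44 of 65 in the same 2 comparisons. With all 12 libraries edgeR therefore called no difference in the decrease between D1 and D7 for any of the 35 genes. DESeq2 called 3 of them, and 29 of the 35 had the more negative estimate at D1. For neither number was the share over all genes counted. The estimates at D1 and D7 came from fits scaled separately, with the median gene at 0.58 and 0.13, so that the count of 29 is a description. *chk-2*, *coh-3*, *coh-4*, *syp-1*, *htp-1* and *htp-2* were the 6 with the more negative estimate at D7.

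The order of the 35 genes by level was similar in all groups. Spearman's rho between group mean TPM over the 35 genes was 0.86 between ages in wild type, 0.90 between ages in *sams-1*-labelled libraries, 0.92 between the 2 labels at D1 and 0.81 at D7, as a description of genes that share these libraries. In wild type at D7, *syp-4* (201 ± 3.93 TPM, SD, n = 3), *xnd-1* (193 ± 5.39) and *him-3* (177 ± 3.74) led, and *chk-2* (7.60 ± 0.67) was last. In *sams-1*-labelled libraries at D7, *him-3* led with 82.3 ± 17.8 TPM, and at D1 *htp-1* did with 53.5 ± 31.2 TPM, spreads that cover the next genes in the order.

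On the genome none of the 35 genes lies on the X chromosome, which holds 14.2% of the genes tested at D7. There are 12 on chromosome IV, 8 on V, 7 on I, 6 on III and 2 on II. Exons of 16 of the 35 overlap another gene, 11 on the other strand and 5 on the same strand. Whether the counting used strand is not given in the sources used here, and the part of neighbours' reads in these 16 was not tested. The 11 are *him-3*, *lab-1*, *chk-2*, *syp-3*, *pch-2*, *spo-11*, *dsb-2*, *xnd-1*, *rad-54*, *brc-2* and *cosa-1*, and the 5 are *coh-4*, *zim-1*, *zim-2*, *syp-1* and *dsb-1*. Expected counts of the 11 and of *dsb-1* were whole numbers in every library. They were fractional in 12 libraries for *coh-4* and *syp-1*, in 11 for *zim-2* and in 1 for *zim-1*. Of the 19 genes with no overlap, 17 fell at D7 and 13 at D1, with medians of -1.17 and -1.91. *spo-11* lies opposite *enpl-1*, whose mean was 181 TPM in wild type and 173 TPM in *sams-1*-labelled libraries at D7.

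A list of 65 other meiosis genes, among them cohesin subunits, checkpoint kinases and nucleases, gave the wider frame. Of these, 48 fell at D1 and 60 at D7, and 0 were called higher. Their median log2 fold change was -1.67 at D1 and -1.05 at D7. The largest decreases at D7 were those of *scc-2*, the cohesin loader (-1.90, SE 0.16), *atm-1*, a DNA damage kinase (-1.82, SE 0.18), *zyg-12*, which links nuclei and pairing centres to the cytoskeleton (-1.77, SE 0.15), and *scc-1*, the mitotic kleisin (-1.64, SE 0.14).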

How the data were processed

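Per the submitters, the authors used Trimmomatic 0.39 for trimming, STAR for alignment and RSEM 1.3.3 for quantification (tools from the processing notes, the ws245 annotation from the study's methods), and DESeq2 1.38 for their own tests. The deposited expected counts are not normalized, and the deposited TPM is corrected by RSEM for effective transcript length. The deposited FPKM was not used. After rounding, all genes entered the quasi-likelihood test of edgeR 4.0.16 under R 4.3.3, with TMM factors and the filterByExpr defaults, on 6 libraries at each age, and on all 12 for age and interaction. Adjusted p-values are Benjamini-Hochberg values over every gene tested. Calls needed an adjusted p under 0.01, whatever the fold. CPM use the TMM factors of each age. For the comparison relative to germ line genes, libraries were scaled on the geometric mean of 41 listed genes. DESeq2 1.42.0 and limma 3.58.1, on log2(TPM + 1) and log2(TPM + 0.1), served as other tools. Python 3.11.15 with pandas 2.3.3 prepared the tables. The programs were tested on simulated data.

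The members and gene lists were chosen with earlier results of these data known. Of the listed symbols, *msh-4* (listed as *him-14*, which matched) and *ssp-9* were not matched, and *rad-54* is listed under a newer symbol. Each called member is named with its log2 fold change. Values in every library are given for the 8 called members with the largest change and no overlap at D7, the 4 at D1, the paralogues, and up to 4 relative to germ line genes. *him-8*, *lab-1*, *spo-11* and the others not called at D7 were singled out together after their values were seen, as was the ratio of *syp-4* to *syp-1* and transcript length. Coordinates follow WBcel235 (Ensembl 115). No sequences are given. Counts cover 3939023 to 7568388 reads a library, and the SE of each estimate carries the precision this gives. The 25 alternative settings covered scaling, the filter on low counts, the tools above, a replicate block, all 12 libraries in 1 fit, other thresholds, oocyte genes for germ line genes, and leaving out each library.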

Additional observations from a re-analysis of the deposited data

How the results depend on the processing

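All 35 estimates stayed below 0 at D1 under every alternative. At D7 the exceptions were *lab-1* and *spo-11*, which turned to 0.080 and 0.13 with upper-quartile factors. The count lower at D7 stayed within 23 to 35 under all alternatives. At D1 the 21 genes lower became 35 with scaling on muscle or intestinal genes, 33 with DESeq2 and 34 at an adjusted p under 0.05, and 0 to 34 when single libraries were left out, while the median log2 fold change stayed at -1.67 to -2.37. The sets with 0 gave at most 2 genes lower and 12 higher over all genes tested. With upper-quartile factors or library totals it was 14 or 16. The members' median log2 fold change was -1.31 to -4.43 at D1 over the scalings, and that of all genes 1.16 to -2.14.

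With age in wild type, the 0 genes higher became 10 with scaling on muscle genes, where the median over all genes was 1.12, and 3 at an adjusted p under 0.05. With age in the libraries labelled *sams-1*, the 1 gene higher became 2 with DESeq2 size factors in edgeR, 3 with upper-quartile factors, 5 with library totals, 35 with scaling on muscle genes, 0 with intestinal genes, 7 with DESeq2, 8 and 6 with limma at a pseudocount of 1 and 0.1, 10 at an adjusted p under 0.05 and 0 to 31 without single libraries (6 without wild-type D1 replicate 5). The 0 called interactions became 3 higher with DESeq2 and 0 to 21 without single libraries, where 0% to 11.4% of all genes were called higher. Apart from the fits that left out a library, the share of all genes called was not counted for these settings. Relative to germ line genes, single libraries moved the count higher to 0 to 1 at D1 and 0 to 14 at D7. Over all genes 13.7% to 71.5% were then called higher at D1 and 68.1% to 79.8% at D7. At D7 the count of the 35 genes was also 8 with no filter and 1 with oocyte genes in place of germ line genes, with 2 lower. The causes were not tested.

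The labels do not say whether replicate numbers pair the libraries. The deviations of same-numbered libraries correlated between -0.33 and 0.20, and those of differently numbered libraries between -0.32 and 0.40. With 3 libraries in a group these values cannot exclude pairing. With a replicate block, the count lower was 21 at D1 and 30 at D7, the count higher relative to germ line genes at D7 was 7, and the count higher with age in the libraries labelled *sams-1* was 0.

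At D1 the spread between replicates limits the tests, and at 22 to 35 reads the counts of *cosa-1* in replicates 3 and 5 labelled *sams-1* limit its fold change.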
